A study of Mus musculus with 6 samples.

Results

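The enzymes described here break down tyrosine and tryptophan in liver: Hpd, Hgd and Fah on the tyrosine route, and Tdo2, Afmid, Kmo, Kynu, Haao and Acmsd on the tryptophan route. They were chosen by gene name as 9 hepatocyte enzymes induced around birth, and every probe that the deposited signal table gives under one of these names was taken, 11 probes of 55681 on the array and 9 genes of 29862 with a name. Total RNA came from livers of 3 Cugbp1 KO mice and 3 wildtype mice, all at 3 days of age, and was hybridised with Cy3 to one-colour whole-genome arrays. Cugbp1, now named Celf1, encodes an RNA-binding protein that acts on the splicing, decay and translation of its targets. The type of knockout allele, the strain and the litters are not given in the sources used here, so p-values measure the spread between these 6 arrays.

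Tyrosine and tryptophan are broken down mainly by hepatocytes, and several of the enzymes are switched on around birth, when the liver passes from blood formation to adult metabolism. On the tyrosine route, HPD makes homogentisate, HGD opens its ring, and FAH splits fumarylacetoacetate, whose build-up is toxic to hepatocytes. On the tryptophan route, TDO2 opens the indole ring and AFMID releases kynurenine, which KMO, KYNU and HAAO carry on to an unstable semialdehyde. That semialdehyde either closes by itself to quinolinate, the precursor of NAD, or is drawn off by ACMSD towards full oxidation.

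In GRCm38.p6, per the RefSeq gene table, the protein-coding genes of the tyrosine route lie at chr5:123171807-123182723 (Hpd), chr16:37579742-37632026 (Hgd) and chr7:84585159-84605942 (Fah). Those of the tryptophan route lie at chr3:81958412-81975728 (Tdo2), chr11:117825503-117839908 (Afmid), chr1:175632193-175660853 (Kmo), chr2:43555258-43683048 (Kynu), chr17:83831348-83848981 (Haao) and chr1:127729413-127767564 (Acmsd). Where the probes lie along these transcripts is unknown here. The RefSeq promoter table holds 8 of the 9 genes, all but Kynu, with 1 transcript start each. Hgd, Afmid and Haao have 3, 12 and 9 transcripts. The stretches shown for them below lie inside the gene coordinates above, so the start used is not the outer end of the gene. The 150 bases before the transcript start are shown for Hgd, Afmid, Kmo and Haao, whose signals varied together over the arrays, and for Tdo2, which varied most, with matches to the motifs below in capitals.
Hgd (chr16:37580003-37580152, plus strand): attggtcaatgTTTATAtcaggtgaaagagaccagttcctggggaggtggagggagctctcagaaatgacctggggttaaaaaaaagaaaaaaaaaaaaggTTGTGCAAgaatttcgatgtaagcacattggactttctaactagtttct
Afmid (chr11:117825769-117825918, plus strand): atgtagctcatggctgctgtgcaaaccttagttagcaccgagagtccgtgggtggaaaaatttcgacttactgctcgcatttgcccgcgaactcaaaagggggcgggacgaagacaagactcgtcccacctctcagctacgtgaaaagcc
Kmo (chr1:175632043-175632192, plus strand): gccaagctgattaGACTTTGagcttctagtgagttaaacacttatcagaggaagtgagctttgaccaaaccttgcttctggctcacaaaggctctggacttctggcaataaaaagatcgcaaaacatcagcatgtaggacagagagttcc
Haao (chr17:83846791-83846940, minus strand): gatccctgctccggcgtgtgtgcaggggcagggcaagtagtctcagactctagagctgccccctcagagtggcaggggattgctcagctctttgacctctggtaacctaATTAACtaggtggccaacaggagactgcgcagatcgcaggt
Tdo2 (chr3:81975729-81975878, minus strand): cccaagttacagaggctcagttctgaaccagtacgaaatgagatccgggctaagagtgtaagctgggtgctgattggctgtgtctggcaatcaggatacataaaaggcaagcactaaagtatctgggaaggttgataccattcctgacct
In the 250 bases before each start, 5 short motifs of factors that act in hepatocytes, or of the basal promoter, were searched on both strands. The C/EBP motif TTGCNNAA was found at 49 bases before the start of Hgd, and in 9.56% of 27018 such windows. The HNF4 motif CAAAGTC lay 137 bases before the start of Kmo (3.8% of windows), and the HNF1 half-site GTTAAT 41 bases before that of Haao (6.52%). A glucocorticoid receptor half-site, TGTTCT, lay 164 bases before the start of Haao (16.2%), and the TATA box letters TATAAA lay 139 bases before that of Hgd and 229 before that of Tdo2 (13%), the one of Hgd on the strand opposite to the gene. Hpd, Fah, Afmid and Acmsd held none of the 5 motifs in this window. All matches in capitals above lie on the strand opposite to the gene, so the letters printed there are the reverse complement of the motif. These matches describe letters only.

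Before the results, some arrays stand apart. Celf1 itself had log2 signals of 9.04, 8.63 and 8.96 on knockout 1, 2 and 3, against 12.05, 11.85 and 11.80 on wild-type 1, 2 and 3, with adjusted p = 0.0556 by limma. The labels' protocol describes male mice, but Xist lay between 10.07 and 10.83 on knockout 2, knockout 3, wild-type 2 and wild-type 3, where the Y-linked Eif2s3y did not exceed 2.34, so that only both arrays numbered 1 carry male transcripts. Hepatocyte markers were detected on all arrays for 14 of 14 genes measured, with a summed scaled signal of 3188130 to 3792379 in knockout and 4001883 to 4296739 in wild-type livers. Summed exocrine pancreas markers reached 235459 on knockout 2, against at most 13265 on any other array, and skeletal muscle markers 79080, 525281 and 112724 on knockout 2, knockout 3 and wild-type 3, against at most 2710 elsewhere. Erythroid markers summed to 327393 on knockout 2, against 788778 to 968320 on the other arrays. Kidney tubule markers, measured because kidney also breaks down tryptophan, summed to 16004 on knockout 2, against 3999 to 7677 on the other arrays. Of the 12 genes, 4 (Slc12a1, Slc12a3, Slc22a8 and Kap) were under the detection level on all 6. The brightest, Miox, had a log2 signal of 13.91 on knockout 2, against 11.14 and 11.39 on knockout 1 and 3. The list as a whole was not raised there. Relative to each gene's own mean, the median of the 7 kidney genes tested was lowest on knockout 2, at -0.18. It was highest on knockout 1, at 0.37, and only 1 of the 7 genes was highest on knockout 2. The brightest marker of each list was Alb for hepatocytes, Marco for macrophages, Miox for kidney, Amy2a5 for pancreas, Tnnc2 for muscle, Hba-a1 for erythroid cells, Krt19 for cholangiocytes and Dcn for stellate cells. Cholangiocyte markers summed to 999 to 2582 in knockout and 926 to 2406 in wild-type livers, and stellate cell markers to 42802 to 78764 in knockout and 42477 to 127948 in wild-type livers, the last on wild-type 3. In such bulk samples fewer cells of a type and less RNA per cell cannot be told apart, and the part of other cells in the results below was not tested.

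No gene of the 9 passed adjusted p 0.05 between knockout and wild-type livers by limma, where 0.00323% of the 30929 features tested passed. The adjusted p was 1 for each of the 9 genes. All 9 were tested, and 8 lay above the detection level, the 30th percentile of an array, on all 6 arrays. The mean was higher in knockout livers for 6 genes and lower for 3, with a median log2 difference of 0.05, beside 49.6% of all features higher and a median of -0.0024. One gene, Acmsd, had an unadjusted p under 0.05 and was the 1 gene of the 9 whose groups did not overlap. Over all features these shares were 2.98% and 6.71%. Below, levels are log2 of the signal after scaling to each array's 75th percentile, and differences are knockout minus wild-type with limma's standard error and 95% interval.

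**Figure D1:**
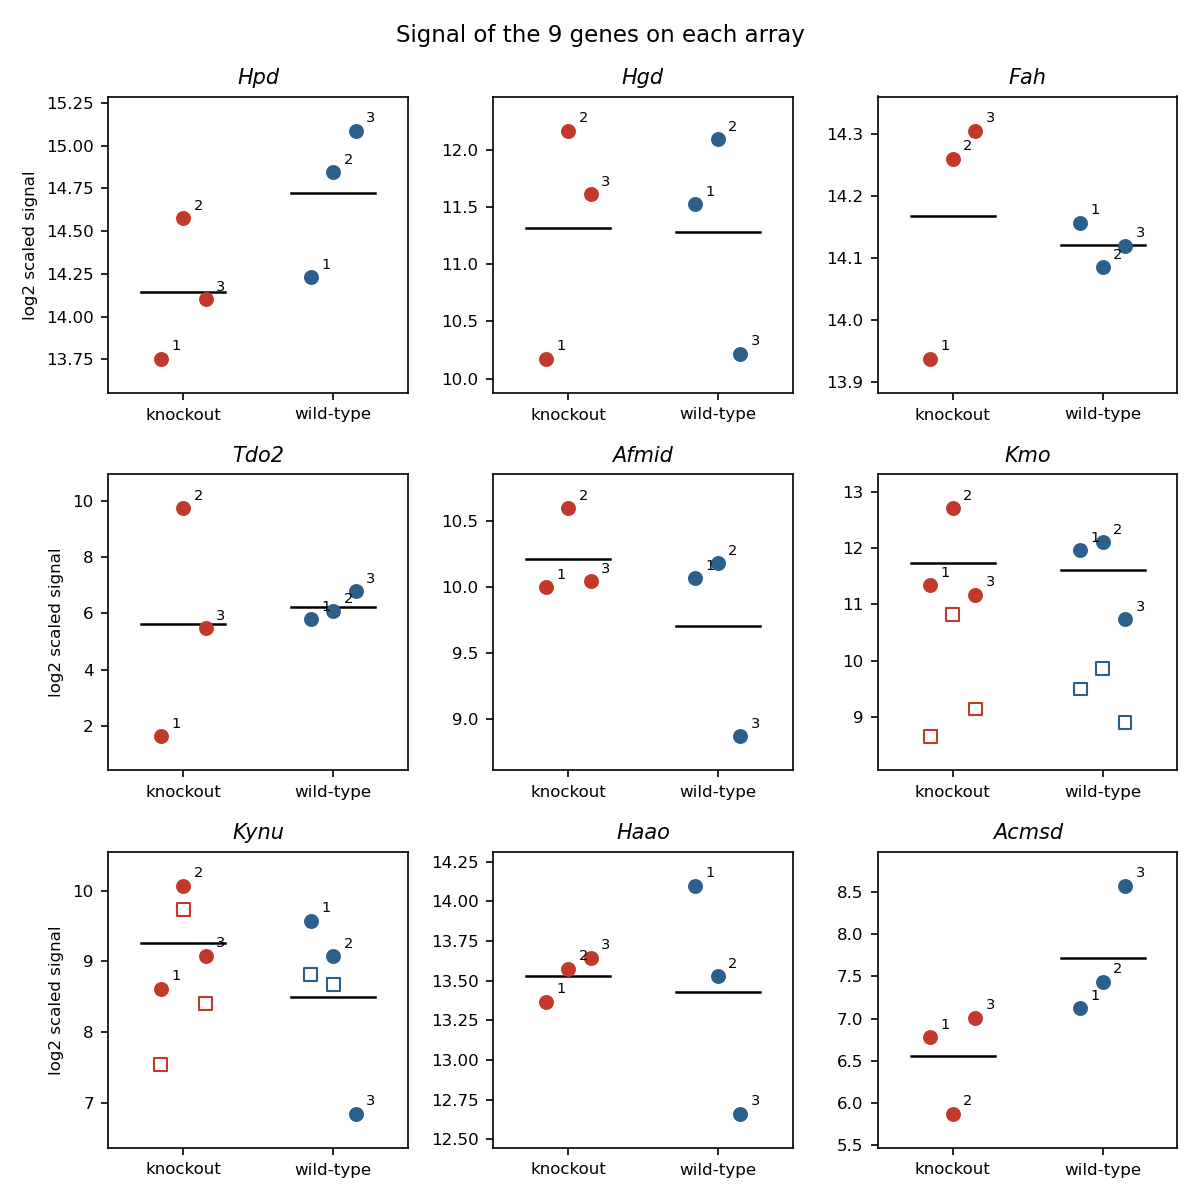
Log2 scaled signal (vertical axes, a separate scale for each gene) of the 9 genes in knockout (red) and wild-type (blue) livers, with the replicate number beside each filled point. Lines are means of 3 arrays and open squares are further probes of Kmo and Kynu; the groups are apart for Acmsd alone, and Tdo2 spans 1.65 to 9.73 within the knockout group.

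Of the tyrosine enzymes, Hpd, which makes homogentisate, had the lower mean in knockout livers, while Hgd and Fah had nearly equal means. Hpd had log2 signals of 13.75, 14.58 and 14.10 on knockout 1, 2 and 3, against 14.23, 14.84 and 15.09 on wild-type 1, 2 and 3. Each knockout array lay under the wild-type array of the same number, by 0.48, 0.27 and 0.98, but the groups overlapped. The difference was -0.58 ± 0.33 (interval -1.36 to 0.21, unadjusted p = 0.125, adjusted p = 1 by limma), and the exact two-sided permutation test gave p = 0.2, where 0.1 is the smallest that 3 arrays against 3 allow. Hepatocyte markers were also lower in knockout livers, with 12 of 14 lower and a median difference of -0.30, but -0.06 with quantile normalization or on the deposited log2 values and -0.19 with no scaling or without knockout 2. With each array centred on those markers Hpd differed by -0.24, and with any 1 array left out by -0.82 to -0.38.

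Hgd, the ring-opening dioxygenase, differed far more between arrays of one genotype than between the genotypes. Its log2 signals were 10.17, 12.17 and 11.61 in knockout livers, against 11.53, 12.09 and 10.22 in wild-type livers. Knockout 1 and wild-type 3 were low and the other 4 arrays high, so both groups held a low array. The difference was 0.04 ± 0.66 (interval -1.53 to 1.60, adjusted p = 1 by limma), so a change of more than 2-fold in either direction lies inside the interval. Without wild-type 3 it was -0.49, and without knockout 2 it was -0.39.

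Fah, the last enzyme of the tyrosine route, was the steadiest of the 9 genes. It had log2 signals of 13.94, 14.26 and 14.31 in knockout livers, against 14.16, 14.09 and 14.12 in wild-type livers, a range of 0.37 over all arrays. Knockout 1 was the lowest and knockout 3 the highest array, with all 3 wild-type arrays between them. The difference was 0.05 ± 0.21 (interval -0.45 to 0.55, adjusted p = 1 by limma).

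The other genes of phenylalanine and tyrosine breakdown gave 7 higher and 5 lower means among 12 tested, with 0 past the threshold and a median of 0.10, which was -0.06 without knockout 2 and -0.09 without wild-type 3. Tat, the transaminase that feeds HPD, had log2 signals of 9.44, 12.51 and 11.45 in knockout livers, against 11.39, 13.04 and 13.11 in wild-type livers. As for Hpd, each knockout array was below the wild-type array of its number, and the difference was -1.38 ± 0.84 (unadjusted p = 0.145, adjusted p = 1 by limma). Gstz1, the isomerase between HGD and FAH, differed by 0.66 ± 0.49. Got1, a cytosolic aspartate transaminase, differed by -1.29 ± 0.67, and Gch1, which starts the synthesis of tetrahydrobiopterin, by -0.71 ± 0.46, with a further probe at -0.89.

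**Figure D2:**
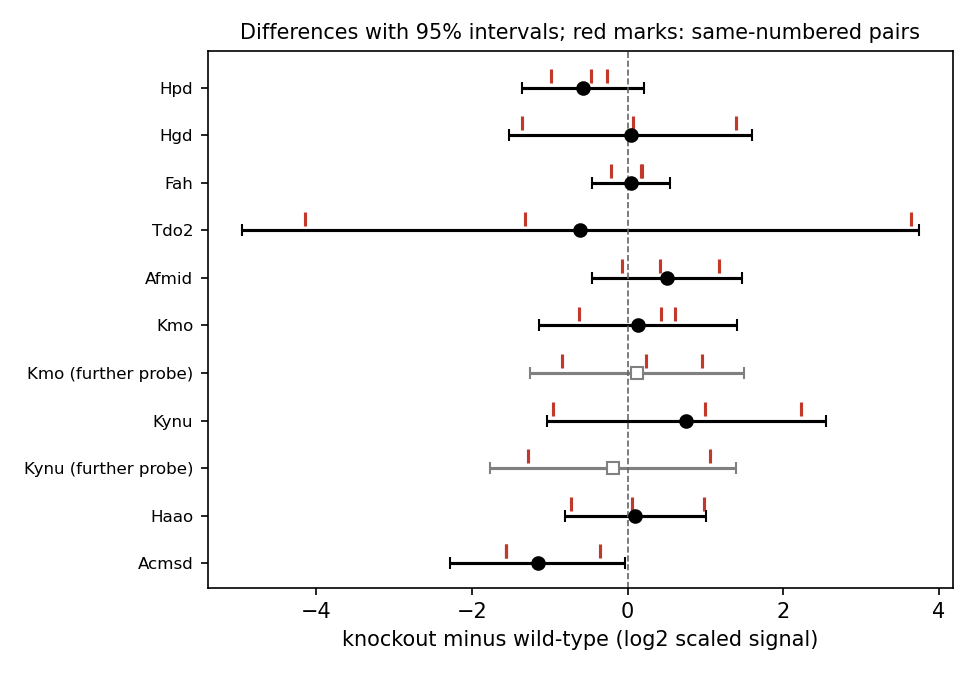
Knockout minus wild-type difference in log2 scaled signal (horizontal axis) for each probe of the 9 genes, with limma's 95% interval; squares are further probes. Red marks are the differences within arrays of the same number, 3 per probe and 2 for the further Kynu probe; the interval leaves out 0 for Acmsd alone, and before adjustment.

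Tdo2, the first and rate-limiting enzyme of hepatic tryptophan breakdown, gave the widest spread of the 9 genes. In rats it is a late enzyme that appears after birth and is induced by glucocorticoids. Its log2 signals were 1.65, 9.73 and 5.47 in knockout livers, against 5.79, 6.09 and 6.80 in wild-type livers. The deposited intensity on knockout 1 was 2.51, under the detection level of that array. The wild-type livers were close together, while the knockout livers lay on both sides of them and spread over a range of 8.08, whose lower end is the value under the detection level. The difference was -0.61 ± 1.82 (interval -4.96 to 3.74, adjusted p = 1 by limma), -2.67 without knockout 2 and 1.38 without knockout 1, so its direction rests on knockout 1. It also turned, to 0.39 and 0.13, with 50 or 16 added to the signal.

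Afmid, the formamidase that releases kynurenine, was lowest on a wild-type array. It had log2 signals of 9.999, 10.60 and 10.05 in knockout livers, against 10.07, 10.18 and 8.87 in wild-type livers. Apart from knockout 2 and wild-type 3, the arrays lay within a narrow band. The difference was 0.51 ± 0.40 (interval -0.45 to 1.47, adjusted p = 1 by limma) and it was 0.09 without wild-type 3.

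Kmo, the mitochondrial monooxygenase that makes hydroxykynurenine, had log2 signals of 11.34, 12.71 and 11.17 in knockout livers, against 11.97, 12.10 and 10.74 in wild-type livers. Knockout 2 was the highest array and wild-type 3 the lowest, and the groups overlapped. The difference was 0.14 ± 0.54 (interval -1.14 to 1.41, adjusted p = 1 by limma). A further probe gave 8.66, 10.82 and 9.15 in knockout livers, against 9.502, 9.86 and 8.91 in wild-type livers. There too knockout 2 was the highest array, and the difference, fitted with every probe by itself, was 0.12 ± 0.58. The sign for the first probe turned without knockout 2 (-0.35) and without wild-type 3 (-0.29).

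Kynu, the hydrolase that follows, had log2 signals of 8.61, 10.07 and 9.08 in knockout livers, against 9.57, 9.07 and 6.85 in wild-type livers. The difference was 0.76 ± 0.75 (interval -1.03 to 2.55, adjusted p = 1 by limma). Wild-type 3 lay far under the other arrays, and without it the difference was -0.07. A further probe, whose cell for wild-type 3 is empty in the table, gave 7.54, 9.73 and 8.40 in knockout livers, against 8.82 and 8.67 on wild-type 1 and 2. Fitted on those 5 arrays, it differed by -0.19 ± 0.64, lower in knockout livers like the first probe without wild-type 3.

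Haao, which makes the semialdehyde at the branch point, was even in knockout livers and uneven in wild-type livers. It had log2 signals of 13.37, 13.58 and 13.65 in knockout livers, against 14.10, 13.53 and 12.66 in wild-type livers. All 3 knockout arrays lay between the highest and lowest wild-type arrays, with an SD of 0.14 in knockout and 0.72 in wild-type livers. The difference was 0.10 ± 0.38 (interval -0.80 to 1.00, adjusted p = 1 by limma) and -0.28 without wild-type 3.

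Acmsd, the decarboxylase that draws the semialdehyde away from NAD synthesis, was the gene of the 9 furthest apart between genotypes for its error. Its log2 signals were 6.78, 5.88 and 7.01 in knockout livers, against 7.13, 7.44 and 8.57 in wild-type livers. All 3 knockout arrays lay below all 3 wild-type arrays, with knockout 3 and wild-type 1 nearest to each other. The difference was -1.16 ± 0.47, or 2.23-fold lower (interval -2.28 to -0.03, unadjusted p = 0.0452, adjusted p = 1 by limma). The exact permutation test gave p = 0.1, the smallest possible. It was -0.35, -1.56 and -1.56 within the pairs numbered 1, 2 and 3, and between -1.45 and -0.73 with any 1 array left out. Blocking on the replicate number gave unadjusted p = 0.0163 and adjusted p = 0.921 by limma. By contrast, limma's unadjusted p was above 0.05 in several other settings. These were 0.136 without knockout 2, 0.122 without wild-type 3, 0.0706 without knockout 1 and 0.0592 without wild-type 2. With array weights it was 0.128, with centring on hepatocyte markers 0.111, with 50 added to the signal 0.0527 and with no scaling 0.0509. Knockout 2 was the lowest and wild-type 3 the highest array, and knockout 3 was the knockout array nearest to wild-type. Each of these arrays carried muscle signal, summed to 79080 on knockout 2, 112724 on wild-type 3 and 525281 on knockout 3. Knockout 2 carried pancreas signal as well. The part of other tissues was not tested. Without knockout 2 the difference was -0.82 and without wild-type 3 it was -0.73.

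Among the other genes of tryptophan breakdown and NAD synthesis, 18 of 20 were tested, with 8 higher and 10 lower means, 0 past the threshold and a median of -0.01, which ran from -0.12 without wild-type 3 to 0.13 without knockout 1. Ido1, the dioxygenase that opens tryptophan outside the liver, was under the detection level on all 6 arrays. Ido2 differed by 0.14 ± 0.58. Qprt, which takes quinolinate on to NAD on the other side of the branch from ACMSD, had log2 signals of 12.27, 14.38 and 13.11 in knockout livers, against 13.07, 13.31 and 11.98 in wild-type livers. Its highest and lowest arrays were knockout 2 and wild-type 3, the reverse of Acmsd, and it differed by 0.47 ± 0.60 (adjusted p = 1 by limma). The kynurenine transaminase genes Kyat1 and Kyat3 differed by -0.04 ± 0.33 and -0.02 ± 0.52, with further probes at 0.02 and 0.43. Aadat was above the detection level on only 2 knockout arrays and 1 wild-type array and was not tested. The smallest unadjusted p in this list belonged to Ddc, the aromatic amino acid decarboxylase, at 0.66 ± 0.36 with all 3 knockout arrays above all 3 wild-type arrays, but a further probe whose groups overlapped differed by 0.32. Nampt, the salvage enzyme of NAD synthesis, differed by -0.70 ± 0.41, and Nmnat1 by -0.36 ± 0.28.

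**Figure D3:**
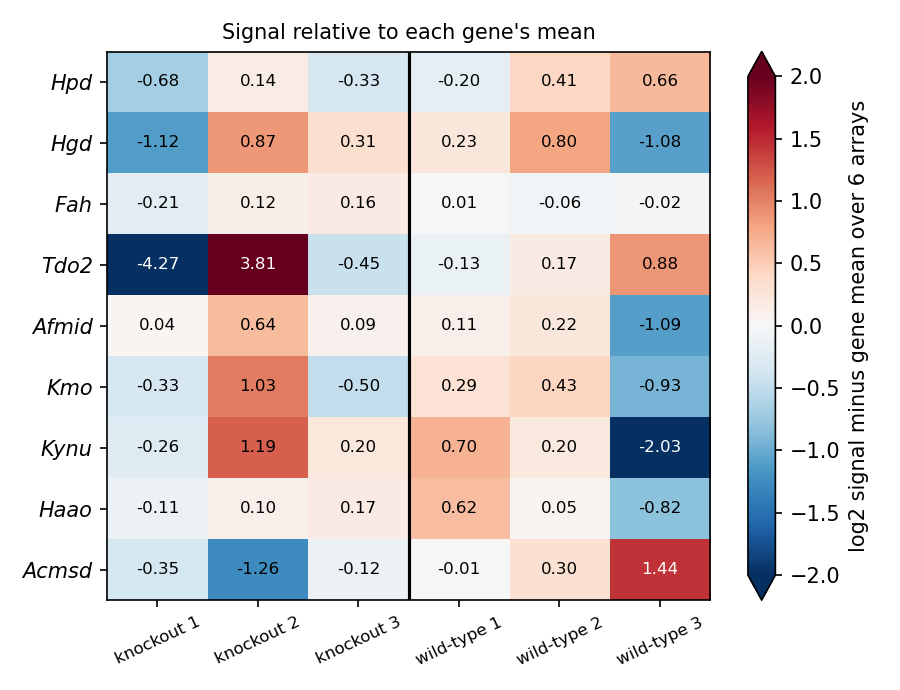
Log2 signal of each of the 9 genes (rows) on each array (columns) minus that gene's mean over the 6 arrays; colours saturate at 2 in either direction and the numbers give the values. Knockout 2 holds the highest value of 5 genes, knockout 1 and wild-type 3 the lowest of 4 each, and Acmsd runs the other way on knockout 2 and wild-type 3.

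For 7 of the 9 genes, all but Hpd and Acmsd, the genotypes differed by less than the larger of the within-genotype SDs. Knockout 2 was the highest array for Hgd, Tdo2, Afmid, Kmo and Kynu, 5 of the 9, and the highest for 20.8% of all features. Knockout 1 was the lowest for Hpd, Hgd, Fah and Tdo2, and wild-type 3 for Afmid, Kmo, Kynu and Haao, against 15.1% and 24.1% of all features. Relative to each gene's own mean, the median of the 9 genes stood at -0.33, 0.64 and 0.09 on knockout 1, 2 and 3, against 0.11, 0.22 and -0.82 on wild-type 1, 2 and 3. Within the pairs numbered alike, all 9 genes were lower on knockout 1 than on wild-type 1, where 43.3% of all features were lower. In the pairs numbered 2 and 3, 7 and 6 of the 9 were higher in knockout, against 48.4% and 49.3% of all features. The median of the 9 genes within the pairs was -0.63, 0.18 and 0.43. Pair 1 is the pair with male transcripts, so within the pairs sex and anything else that the arrays numbered 1 share cannot be told apart.

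Hgd, Afmid, Kmo, Kynu and Haao, a set chosen after the values were seen, varied together. Over the 6 arrays their 10 pairwise Pearson correlations ran from 0.61 to 0.97, a description of arrays that share the same scaling and cell makeup. On the 4 arrays other than knockout 2 and wild-type 3 they ran from 0.07 to 0.96. Acmsd correlated with these 5 genes at -0.92 to -0.52. Hpd correlated with the 5 genes at -0.52 (Haao) to 0.16 (Hgd), and Fah at 0.23 (Kmo) to 0.62 (Hgd).

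**Figure D4:**
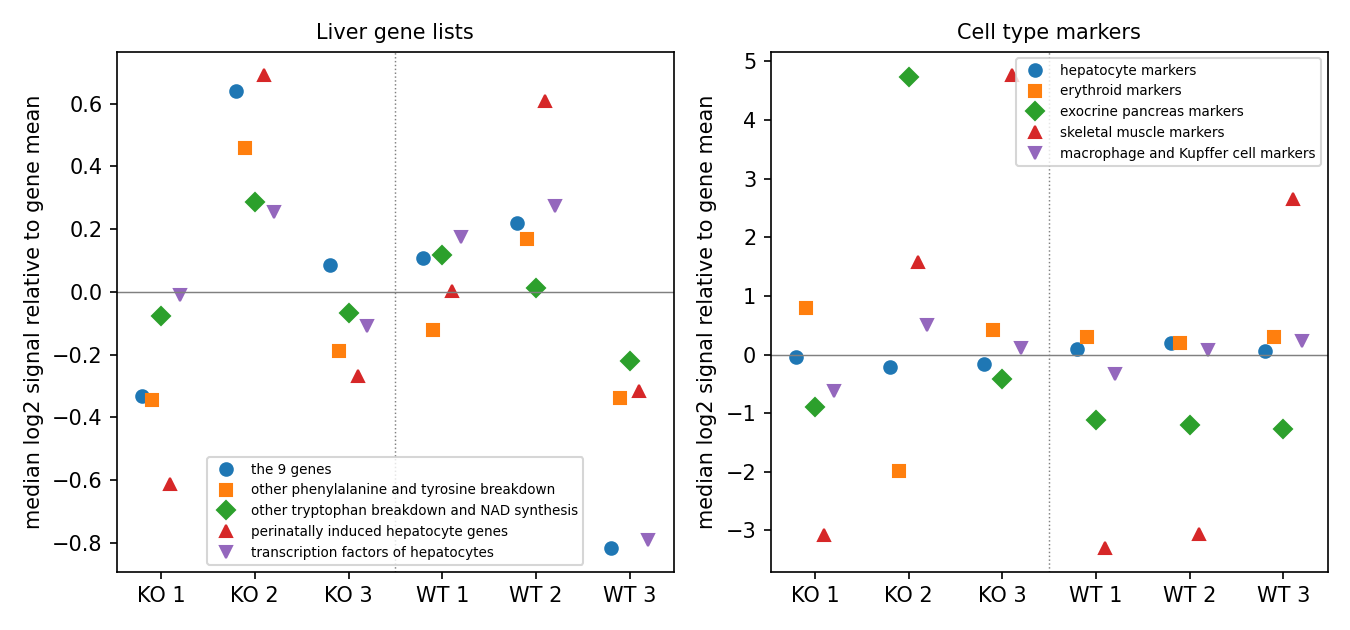
Median over the genes of each list of the log2 signal relative to the gene's own mean (vertical axes; the scales of the panels differ), for each knockout (KO) and wild-type (WT) array. Left, the 9 genes and 3 lists of liver enzymes have their highest median on knockout 2 and hepatocyte transcription factors on wild-type 2; right, cell type markers, with pancreas markers at 4.73 and erythroid markers at -1.98 on knockout 2.

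Other genes of maturing hepatocytes stood high on knockout 2 and wild-type 2 and low on knockout 1 in their median. The 24 tested genes known to be induced around birth, such as the urea cycle and gluconeogenesis enzymes, stood at a median of -0.61, 0.69 and -0.27 on knockout 1, 2 and 3, against 0.00, 0.61 and -0.32 on wild-type 1, 2 and 3. Of these 24 genes, 7 were highest on knockout 2, against 20.8% of all features. The lowest array was knockout 1 for 12 of them and wild-type 3 for 9, against 15.1% and 24.1% of all features. This list holds Tat as well, but none of the 9 genes. It had 7 higher and 17 lower means, 0 past the threshold and a median difference of -0.30, but 0.11 without knockout 1 and 0.14 without wild-type 2. Ass1, of the urea cycle, differed by -0.45 ± 0.23, with a further probe at -0.39, and Hao1, a peroxisomal oxidase gene, by 0.68 ± 0.36. Hepatocyte transcription factors stood low on wild-type 3 alone, at -0.79, with a median difference of 0.19 (-0.095 without wild-type 3) and 0 of 12 past the threshold. Among them Onecut1 differed by 0.86 ± 0.48, Cebpa by 0.44 ± 0.31 and Cebpb by -0.79 ± 0.57. A further Onecut1 probe, whose groups did not overlap, differed by 1.08. Fetal liver genes were lowest on knockout 2, at -0.55, where erythroid markers stood at -1.98. Of the 18, 0 passed, with a median difference near 0 (-0.002). The groups did not overlap for 3 of them, all lower in knockout, beside 6.71% of all features in either direction. Gpc3, a fetal liver proteoglycan gene, differed by -0.54 ± 0.22 (unadjusted p = 0.0456 by limma) and the embryonic globin gene Hba-x by 1.59 ± 0.93. Ahsg, which encodes fetuin and is also on the list of hepatocyte markers, differed by -0.32 ± 0.20. A further, dim Gpc3 probe, above the detection level on only 1 wild-type array, differed by 1.18.

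Hepatocyte markers stood at -0.04, -0.22 and -0.17 on knockout 1, 2 and 3, against 0.10, 0.19 and 0.06 on wild-type 1, 2 and 3. All 3 knockout medians were lower, and 4 of 14 markers had groups that did not overlap, all lower in knockout, beside 6.71% of all features in either direction. Of the 14, 0 passed the threshold. The size depended on the scaling, as their median difference of -0.30 was -0.06 with quantile normalization or on the deposited log2 values. Macrophage and Kupffer cell markers, measured because macrophages also express kynurenine pathway enzymes, stood at -0.62, 0.51 and 0.11 on knockout 1, 2 and 3, against -0.34, 0.08 and 0.23 on wild-type 1, 2 and 3. Macrophage markers were thus low on knockout 1 and high on knockout 2, like the 9 genes, but not low on wild-type 3. Their sum ran from 56956 to 123136 in knockout and from 71593 to 114279 in wild-type livers, and their part in the array pattern of the 9 genes was not tested.

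For each of the 9 genes the single named feature with the most similar log2 signal over the 6 arrays was looked up among 21602. These were Dusp3 for Hpd, Olfr1077-ps1 for Hgd, Tuba1a for Fah, LOC675735 for Tdo2, Tbcd for Afmid, Diaph2 for Kmo, LOC100048662 for Kynu, Echdc1 for Haao and ENSMUST00000055842 for Acmsd. The Pearson correlations lay between 0.991 for Fah and 0.9992 for Kmo, and they are the highest of many over only 6 points.

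**Figure D5:**
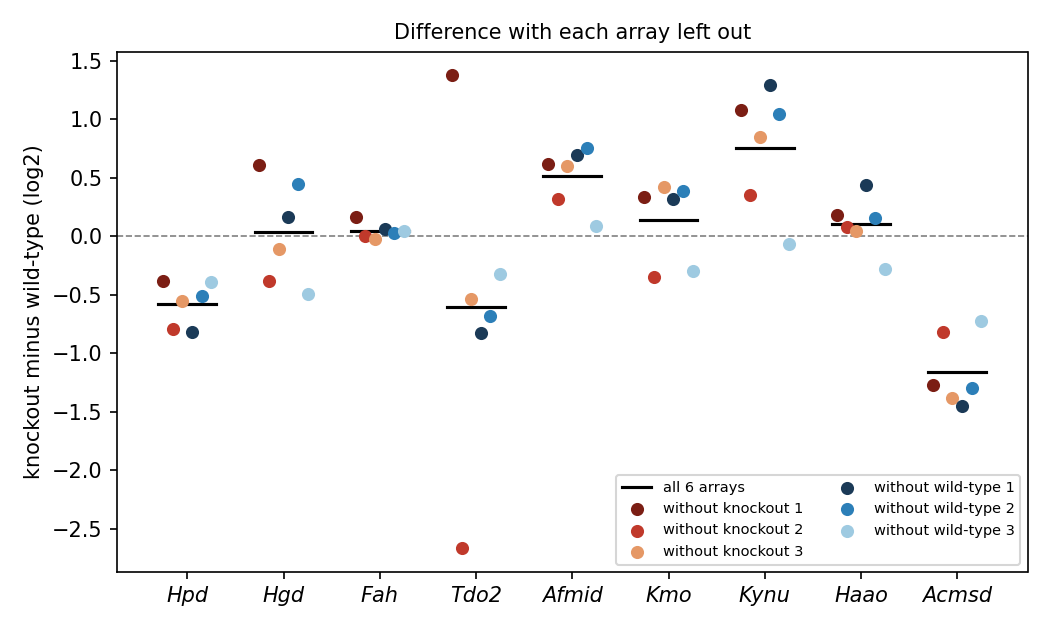
Knockout minus wild-type difference (log2, vertical axis) of the 9 genes with all 6 arrays (black lines) and with each array left out (points). Hpd and Acmsd stay below 0 and Afmid above 0 throughout, and Tdo2 runs from -2.67 without knockout 2 to 1.38 without knockout 1.

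With each array left out in turn, Hpd and Acmsd kept a negative and Afmid a positive difference, while the other 6 genes each changed sign at least once. Leaving out wild-type 3 turned Hgd, Kmo, Kynu and Haao, and leaving out knockout 2 turned Hgd and Kmo. Without wild-type 3 the median of the 9 genes was -0.29, without knockout 2 it was -0.35 and without knockout 1 it was 0.34, against 0.05 with all arrays.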

How the data were processed

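The deposited intensity values are on a linear scale, for 55681 probes on 6 arrays, and come from Agilent Feature Extraction per the submitters' processing notes. Which scanner column they are, how background was handled and the software version are not given in the sources used here. A deposited log2 table holds the same arrays after quantile normalization and centring of every probe on its median, as a recomputation showed (at least 99.96% of probes equal within 0.01 on every array). Its column medians ran from -0.011 to 0.005. The number of arrays, 3 a genotype, limits the precision; array medians ran from 34.5 to 48.9.

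Each array was scaled to a common 75th percentile (350.2 to 534.8 before scaling), values under 1 were set to 1, and log2 was taken. A probe above the 30th percentile on all 3 arrays of a genotype was tested, and the probe with the highest mean stood for its gene. limma 3.58.1 in R 4.3.3 (lmFit and eBayes, two-sided, no covariates) was run on 30929 features, 21627 of them named, with Benjamini-Hochberg adjustment. Symbols came from the signal table, where RefSeq's GRCm38.p6 gene table held the current symbol for 27364 probes and an update for 3651. The fit was tested on simulated arrays with known changes and independent noise. That simulation held no array-wide shifts, other tissues or variation shared between arrays, so it does not bear on their effect here. After removal of group means same-numbered arrays correlated at 0.36, 0.26 and 0.30, and arrays of different numbers at -0.21 to -0.06. These values are tied to each other, because deviations from a group mean cancel out within a genotype. With these correlations in view, differences within same-numbered arrays are given and the replicate block was run as an alternative. The main fit and the permutation test do not use the numbers as pairs, and the labels name no litter.

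The 9 genes, the lists, taken from textbook knowledge, and the tests were chosen with earlier results of these data known, and no list was tested as a set. Named are the 9 genes, Celf1, from each list the 3 genes with the smallest unadjusted p and the enzymes next to the 9 genes, the brightest gene of each marker list and the feature most like each gene; the 1 feature that passed the threshold and some genes under this rule are not reported here. Motifs were chosen after the files were read. Promoter sequences are RefSeq's, GRCm38.p6. Alternatives concerned scaling, the floor, the filter, probe choice, array weights, the replicate block and left-out arrays.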

Additional observations from a re-analysis of the deposited data

How the results depend on the processing

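Over 20 alternatives 0 of the 9 genes passed adjusted p 0.05, with the lowest adjusted p at 0.547 (Acmsd and Afmid, by limma with arrays centred on hepatocyte markers, an alternative chosen after seeing the data). The direction of Hpd (-0.82 to -0.24), Afmid (0.09 to 0.85) and Acmsd (-1.45 to -0.65) held in all of them. Tdo2 turned to 0.39 and 0.13 with 50 and 16 added to the signal and to 1.38 without knockout 1. With array weights Hgd turned to -0.14, Kmo to -0.42 and Haao to -0.091. Hgd turned to -0.39 without knockout 2, -0.11 without knockout 3 and -0.49 without wild-type 3, Kmo to -0.35 without knockout 2 and -0.29 without wild-type 3, Fah to -0.022 without knockout 3, Kynu to -0.07 and Haao to -0.28 without wild-type 3. With single arrays left out the ranges were -0.49 to 0.61 for Hgd, -0.022 to 0.162 for Fah, -2.67 to 1.38 for Tdo2, -0.35 to 0.42 for Kmo, -0.07 to 1.29 for Kynu and -0.28 to 0.44 for Haao. The cause of these turns was not tested. The median of the 9 genes lay between -0.35 and 0.34 with single arrays left out and moved by less than its spread between replicates, 0.53, under every alternative.

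Celf1 lay between -3.29 and -2.69 over these alternatives. It passed the threshold with scaling to the median (-3.05), with 50 (-2.90) or 16 (-2.98) added and with a stricter filter (-3.03). It also passed with every probe by itself (-3.03 for its brighter probe), with array weights (-3.02) and with trend and robust (-3.03). A further, dimmer Celf1 probe, whose groups did not overlap, differed by -3.55 with every probe by itself. Its adjusted p of 0.553 by limma did not pass. The number of features past the threshold was 1 and became 2 with scaling to the median, the stricter filter, trend and robust, or centring on hepatocyte markers, 3 with every probe by itself, 6 with array weights, 0 without a filter on dim probes and 0 with the replicate block, where 1577 features had an unadjusted p under 0.05 against 923; it was 0 to 1 with single arrays left out. The replicate block changed no call among the 9 genes. The list of other tryptophan and NAD genes moved to a median of 0.33 when centred on hepatocyte markers. Among the 9 genes, Tdo2 on knockout 1 was the 1 value under the detection level, where the log2 signal is least certain.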
